A study of Rattus norvegicus with 6 samples.

Results

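The insulin-like growth factor (IGF) system was described in the rat endosalpinx, which lines the oviduct, from 10 genes chosen by name: the ligands Igf1 and Igf2, the receptors Igf1r and Igf2r, and the binding proteins Igfbp2, Igfbp3, Igfbp4, Igfbp5, Igfbp6 and Igfbp7. All 10 were measured, each by 1 probe set, among 14506 genes on the array. RNA came from 6 individual rats, adult Sprague-Dawley females, and each had an array of its own. The 3 mated females joined fertile males at 2200 h on the day of pro-estrus, carried sperm or a vaginal plug 30 min later, and were killed 3 h after mating, at 0130 h of estrus; the labels record abundant semen in their uterus. The 3 unmated females were kept isolated and killed at 0130 h of estrus with an edematous uterus. Mating, the company of a male and the smear check cannot be told apart in this design, and weights were labelled as 240 to 280 g in all but 1 animal (241 to 280 g).

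As background, IGF1 and IGF2 are small secreted hormones related to insulin. Both act through the IGF1 receptor, a tyrosine kinase that signals to PI3-kinase, AKT and MAP kinases, whereas the IGF2 receptor, also the mannose 6-phosphate receptor, takes IGF2 up for breakdown in lysosomes. Binding proteins hold the ligands in tissue fluid and matrix, prolong their life and limit their access to the receptor, and proteases such as PAPP-A set them free. In the rodent uterus estrogen induces Igf1, and in the oviduct the IGFs are known as growth factors for the tract and the early embryo.

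All values below are log2 signals processed by the authors with RMA, so that 1 unit is a 2-fold difference, and each gene is compared with itself between rats, since probe sets differ in brightness for reasons other than RNA amount. The tissue carried its labelled epithelium. Each of 9 epithelial markers was above the range of odorant and pheromone receptor genes, which serves as a guide to background and ended at a log2 signal of 7.13 (the 95th percentile of 1256 such genes). The mean of these 9 markers was 12.27 to 12.39 in mated rats and 12.17 to 12.41 in unmated rats. All 8 measured ciliated cell markers and 4 of 5 secretory cell markers also lay above that range, as did all 10 genes of the IGF system by their mean over the arrays. Of all genes 71.1% lay above it, and so did 9 of 12 fibroblast markers, so a place above the range does not mark a cell type.

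Igfbp2 and Igfbp5 are neighbours in the rat genome, with no annotated protein-coding gene between them in RefSeq, and both were among the most variable members between rats. They were picked after the values were seen, because the 2 arrays lowest for Igfbp5 were the 2 highest for Igfbp2, for which no cause was tested. The opposite order was partial: unmated replicate 1, highest for Igfbp5 (11.55), was also above mated replicates 1 and 2 for Igfbp2 (8.69). The 250 bases upstream of each annotated start are from RefSeq, build GRCr8, with capitals for matches on either strand to TATAAA (the TATA box), GGGCGG (the GC box) or CACGTG (the E-box). The Igfbp2 window is chr9:81864561-81864810 on the plus strand, and the Igfbp5 window is chr9:81914188-81914437 on the minus strand.
Igfbp2: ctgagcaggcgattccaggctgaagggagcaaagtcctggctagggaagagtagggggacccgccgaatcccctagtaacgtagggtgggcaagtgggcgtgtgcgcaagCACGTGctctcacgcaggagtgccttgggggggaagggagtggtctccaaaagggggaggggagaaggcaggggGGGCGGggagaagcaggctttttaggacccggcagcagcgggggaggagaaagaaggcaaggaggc
Igfbp5: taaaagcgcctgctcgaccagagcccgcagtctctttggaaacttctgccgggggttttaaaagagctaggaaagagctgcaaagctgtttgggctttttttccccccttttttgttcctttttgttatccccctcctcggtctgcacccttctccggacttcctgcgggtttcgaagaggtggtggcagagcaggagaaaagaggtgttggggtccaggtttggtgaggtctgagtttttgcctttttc
The Igfbp2 window held 1 E-box, a motif found in 5.59% of 33469 annotated rat promoter windows, and 1 GC box, found in 30.5%. The windows of Igf1r and Igf2r also held both motifs. The Igfbp5 window held no match to the 3 motifs, of which the TATA box was found in 12.9% of all windows. GC content was 64.0% in the Igfbp2 window and 51.6% in the Igfbp5 window, against a median of 51.2% over all windows. A match of letters is not evidence of binding.

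At 3 h after mating, none of the 10 genes of the IGF system passed the adjusted threshold in mated against unmated rats, and none had groups that did not overlap. The receptor gene Igf1r showed the smallest p, with a 1.15-fold higher mean in mated rats, and the binding protein gene Igfbp6 and the ligand gene Igf1 had the largest negative estimates, at 0.855-fold and 0.871-fold. Of the 10, 3 had a higher and 7 a lower mean in mated rats. This split was the same as deposited and under both other scalings tried. Median centring lowered every member by the same amount, too little to change the split. Without unmated replicate 1 it became 5 and 5 (median log2 fold change of the members 0.01). Over all genes 45.5% were lower, or 52.2% after median centring. The median log2 fold change of the members was -0.03, against 0.01 over all genes. By limma, 0 of 14506 genes passed an adjusted p of 0.05 (0%), with a smallest adjusted p = 0.984. At an unadjusted p under 0.05 there were 0 of 10 members, against 4.57% of all genes (663 genes), and groups did not overlap for 0 of 10 members, against 8.47% of all genes. In the deposited values the 663 genes divided into 438 higher and 225 lower in mated rats, and there were 336 higher and 294 lower after centring each array on its median. In whole tissue, fewer cells of a type and less RNA per cell cannot be told apart.

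**Figure D1:**
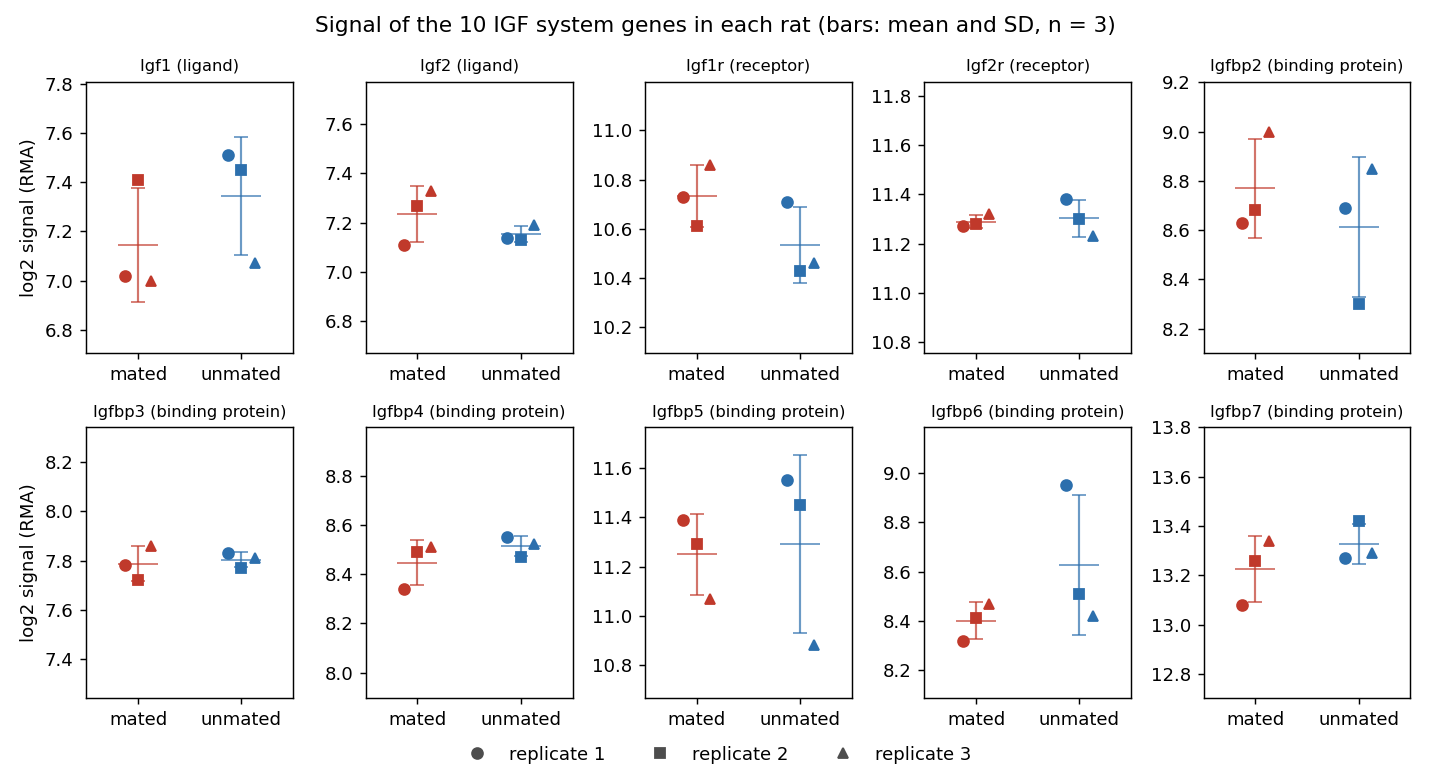
Log2 signal (vertical axis, RMA units) of the 10 IGF system genes in 3 mated (left, red) and 3 unmated rats (right, blue); each symbol is 1 rat, numbered by replicate, and bars give the mean and SD. Each panel spans the same height in log2 units, and in every panel the 2 groups overlap.

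The ligand gene Igf1 (Entrez gene 24482) had log2 signals of 7.02, 7.41 and 7.0 in mated rats and 7.51, 7.45 and 7.07 in unmated rats. In each group 1 rat stood apart from the other 2: mated replicate 2 was high among mated rats and unmated replicate 3 was low among unmated rats, so the groups overlapped. The means were 7.14 ± 0.23 in mated and 7.34 ± 0.24 in unmated rats (SD, n = 3 each), a log2 fold change of -0.20 (95% confidence interval -0.54 to 0.14; adjusted p = 0.984 by limma). Signals of Igf1 lay at or below the receptor range on 3 of 6 arrays.

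Igf2 (Entrez gene 24483), the ligand best known from fetal growth and imprinting, had log2 signals of 7.11, 7.27 and 7.33 in mated rats and 7.14, 7.13 and 7.19 in unmated rats. Mated replicates 2 and 3 were above all unmated rats and mated replicate 1 was below them. Its log2 fold change was 0.08 (-0.10 to 0.26; adjusted p = 0.984 by limma), and 2 of 6 arrays lay at or below the receptor range. The signals of both ligands were thus near the upper end of the range taken as background.

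Igf1r (Entrez gene 25718), the signalling receptor, had log2 signals of 10.73, 10.61 and 10.86 in mated rats and 10.71, 10.43 and 10.46 in unmated rats. The lowest mated rat lay above 2 of the 3 unmated rats, and unmated replicate 1 lay within the mated range. Means were 10.73 ± 0.13 in mated and 10.53 ± 0.15 in unmated rats (SD, n = 3 each), and the log2 fold change was 0.20 (-0.03 to 0.43; adjusted p = 0.984 by limma). This was the member with the smallest p.

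Igf2r (Entrez gene 25151), the clearance receptor, had log2 signals of 11.27, 11.28 and 11.32 in mated rats and 11.38, 11.30 and 11.23 in unmated rats. Its signal was among the steadiest of the set: the mated rats spanned 0.05 log2 units, inside the 0.15 spanned by the unmated rats. The difference was -0.01 (-0.17 to 0.15; adjusted p = 0.992 by limma), so the interval allowed at most a 1.11-fold higher or a 0.887-fold mean in mated rats.

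Igfbp6 (Entrez gene 25641), a binding protein that prefers IGF2, had log2 signals of 8.32, 8.41 and 8.47 in mated rats and 8.95, 8.51 and 8.42 in unmated rats. Unmated replicate 1 stood 0.44 above the mean of all arrays, while the other 2 unmated rats were close to the mated ones. The means were 8.40 ± 0.08 in mated and 8.63 ± 0.28 in unmated rats (SD, n = 3 each), with a log2 fold change of -0.23 (-0.54 to 0.08; adjusted p = 0.984 by limma). Without unmated replicate 1 the estimate was -0.07.

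Igfbp5 (Entrez gene 25285), which binds to matrix and is found in stromal and smooth muscle cells of many tissues, had log2 signals of 11.39, 11.29 and 11.07 in mated rats and 11.55, 11.45 and 10.88 in unmated rats. The highest and the lowest of the 6 rats were both unmated. Its range was 0.67 log2 units among unmated and 0.32 among mated rats, against a difference between the groups of -0.04 (-0.44 to 0.36; adjusted p = 0.989 by limma). Within groups its SD was 0.28, at the 95.8th percentile of all genes.

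Igfbp2 (Entrez gene 25662), a binding protein of many epithelia and fetal tissues, had log2 signals of 8.63, 8.68 and 9.0 in mated rats and 8.69, 8.30 and 8.85 in unmated rats. Mated replicate 3 and unmated replicate 3 were the highest, and those same 2 rats were the lowest for Igfbp5. Unmated replicate 2 was lowest for Igfbp2 and next to highest for Igfbp5. The mean of the 9 epithelial markers was also highest in unmated replicate 3 (12.41) and mated replicate 3 (12.39). It was lowest in unmated replicate 2 (12.17), and the part of these markers in the values of Igfbp2 was not tested. The log2 fold change was 0.16 (-0.20 to 0.51; adjusted p = 0.984 by limma), and it was 0 without unmated replicate 2.

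Igfbp3 (Entrez gene 24484), the main carrier of IGFs in blood, had log2 signals of 7.78, 7.72 and 7.86 in mated rats and 7.83, 7.77 and 7.81 in unmated rats. All 3 unmated values fell inside the mated range, and the log2 fold change was -0.02 (-0.18 to 0.14; adjusted p = 0.989 by limma). Igfbp4 (Entrez gene 360622), a binding protein that restrains IGFs and is the main substrate of PAPP-A, had log2 signals of 8.34, 8.49 and 8.51 in mated rats and 8.55, 8.47 and 8.52 in unmated rats. Mated replicate 1 alone was low, and the log2 fold change was -0.07 (-0.24 to 0.10; adjusted p = 0.984 by limma).

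Igfbp7 (Entrez gene 289560), a secreted protein of vessel walls and stroma that binds IGFs weakly, had log2 signals of 13.08, 13.26 and 13.34 in mated rats and 13.27, 13.42 and 13.29 in unmated rats. Here too mated replicate 1 was the lowest of the 6 rats. The log2 fold change was -0.10 (-0.30 to 0.10; adjusted p = 0.984 by limma).

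By role, the median log2 fold change was -0.06 for the 2 ligands, 0.09 for the 2 receptors and -0.06 for the 6 binding proteins, with 1 ligand, 1 receptor and 1 binding protein higher in mated rats. Of the binding proteins 5 were lower in mated rats, with differences from -0.02 for Igfbp3 to -0.23 for Igfbp6 and none past the test. The 5 stayed lower under both other scalings, of which median centring could not change this count. The 95% confidence intervals of all 10 members lay inside a 1.5-fold difference in either direction, as did those of 95.7% of all genes. For 5 members, namely Igf2, Igf2r, Igfbp3, Igfbp4 and Igfbp7, they lay inside 1.3-fold, against 79.3% of all genes. These intervals are not adjusted for the number of genes.

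**Figure D2:**
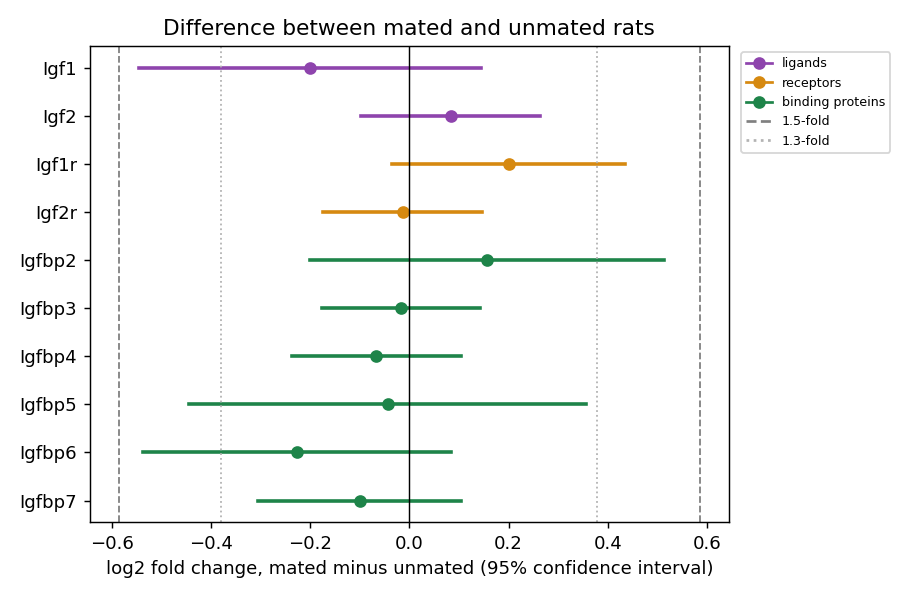
Log2 fold change of each gene, mated minus unmated (points), with the 95% confidence interval of the moderated fit (lines), coloured by role; dashed and dotted lines mark 1.5-fold and 1.3-fold. All 10 intervals include 0 and lie inside 1.5-fold, and Igf1r comes nearest to leaving 0 out.

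The SD between rats within groups exceeded the difference between the groups for several members. It was 0.28 for Igfbp5, 0.23 for Igf1 and 0.25 for Igfbp2. For Igfbp6 it was 0.21, smaller in size than the group difference of -0.23. Over the 6 arrays the SD, which includes the group difference, was 0.25 for Igfbp5, 0.24 for Igf1, 0.24 for Igfbp2 and 0.22 for Igfbp6. It was 0.05 for both Igf2r and Igfbp3. Within groups, the SD of 3 members (Igf1, Igfbp2 and Igfbp5) lay above the 90th percentile of all genes. Unmated replicate 1 had the highest signal of the 6 rats for 5 members, namely Igf1, Igf2r, Igfbp4, Igfbp5 and Igfbp6, and mated replicate 1 had the lowest for Igf2, Igfbp4, Igfbp6 and Igfbp7.

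The mean of markers of fibroblasts followed part of this order. The mean of 12 such markers was 7.76, 7.9 and 7.91 in mated rats and 8.04, 7.97 and 7.83 in unmated rats, so unmated replicate 1 was again highest and mated replicate 1 lowest. Of the 12, 9 were lower in mated rats (7 where the arrays were quantile-normalized again). The matrix protein gene Dpt alone had an unadjusted p under 0.05, against 4.57% of all genes. Its log2 fold change was -0.46 (95% confidence interval -0.69 to -0.22, adjusted p = 0.984 by limma). Within the receptor range, by their mean over the arrays, lay 3 of the 12, namely Lum, Pdgfrb and Thy1. Dpt was near its upper limit of 7.13, with 6.86, 7.17 and 6.94 in mated and 7.38, 7.58 and 7.38 in unmated rats. Most of the 12 markers did not have both extremes in the same rats as their mean. Dpt, for example, was highest in unmated replicate 2 and Pdgfrb in mated replicate 2. Parts of this order were also seen in other marker lists. Unmated replicate 1 was highest for the mean of the macrophage markers (8.51) and of the 2 measured mesothelium markers (10.175). Mated replicate 1 was lowest for the endothelial (7.28) and the erythroid and platelet markers (7.45). No other marker list had both extremes in those rats. The part of the fibroblast markers in the values of Igf1 and Igfbp6 was not tested. The mean of 7 smooth muscle markers was 8.02 to 8.25 in mated rats and 8.0 to 8.35 in unmated rats. All 8 measured ciliated cell markers had a lower mean in mated rats, with none at an unadjusted p under 0.05. This held under both other scalings, of which median centring could not change it. The mean of these markers was 10.99 to 11.30 in mated rats and 11.09 to 11.26 in unmated rats. Their part in the values of the IGF system was not tested.

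**Figure D3:**
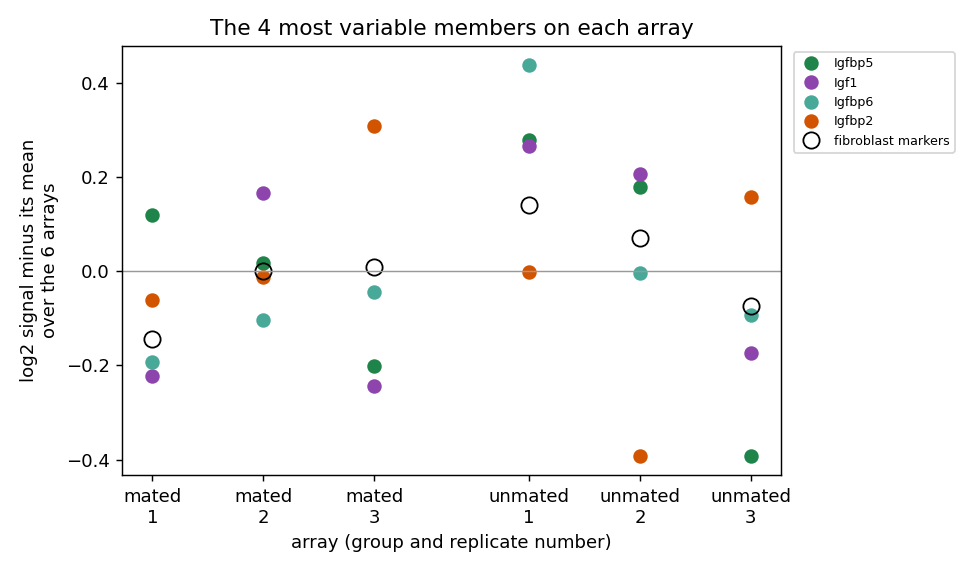
Log2 signal of Igfbp5, Igf1, Igfbp6 and Igfbp2 on each array, minus the gene's mean over the 6 arrays (vertical axis), for mated replicates (left) and unmated replicates (right); open circles give the mean of 12 fibroblast markers in the same way. Igfbp5 ran from -0.39 to 0.28 and Igfbp2 from -0.39 to 0.31, and the 2 arrays lowest for Igfbp5 were the highest for Igfbp2.

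The genes whose pattern over the 6 rats was most like that of Igfbp5, the most variable member, were sought among all genes by the root-mean-square difference of log2 signals centred on each gene's mean. The 5 closest were C1s, a complement protease, at 0.05 log2 units, Vom1r11 at 0.06, Cd48, a surface protein of blood cells, at 0.06, Timp2, an inhibitor of metalloproteinases, at 0.07 and Or4x11 at 0.07. C1s, for example, had log2 signals of 7.37, 7.25 and 7.0 in mated rats and 7.54, 7.51 and 6.77 in unmated rats. Of these 5 genes 2, Vom1r11 and Or4x11, belong to the receptor family that guides the background level, so with 6 rats and 14506 genes a close match also occurs among genes within the receptor range.

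Leaving out 1 rat at a time moved the number of members at an unadjusted p under 0.05 between 0 and 2 and the number without overlap between 1 and 3, with none past the adjusted threshold in any setting. Groups separate more easily with 1 rat fewer: the share of all genes without overlap was 14.6% to 26.8% in these settings, and the share at an unadjusted p under 0.05 was 2.98% to 9.67%. Without mated replicate 2 both Igf1 (log2 fold change -0.33) and Igf1r (0.26) were under 0.05, against 3.87% of all genes. Without unmated replicate 1 it was Igf1r (0.29), against 4.42% of all genes, and without unmated replicate 3 it was Igf1 (-0.34) and Igfbp6 (-0.33), against 5.81%. No member was under 0.05 without mated replicate 1 (9.67% of all genes), without mated replicate 3 (3.67%) or without unmated replicate 2 (2.98%). Groups then did not overlap for Igf2 without mated replicate 1 (26.8% of all genes), for Igf1 and Igf1r without mated replicate 2 (16.3%), and for Igfbp6 and Igfbp7 without mated replicate 3 (15.3%). They also did not overlap for Igf1r without unmated replicate 1 (17.5% of all genes), for Igfbp4 without unmated replicate 2 (14.6%), and for Igf1, Igfbp5 and Igfbp6 without unmated replicate 3 (19.9%). The estimates for Igf2r, Igfbp3 and Igfbp5, all close to 0, changed sign without certain rats: Igf2r to 0.025 without unmated replicate 1, Igfbp3 to 0.017 without mated replicate 2, and Igfbp5 to as much as 0.085 without unmated replicate 1.

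**Figure D4:**
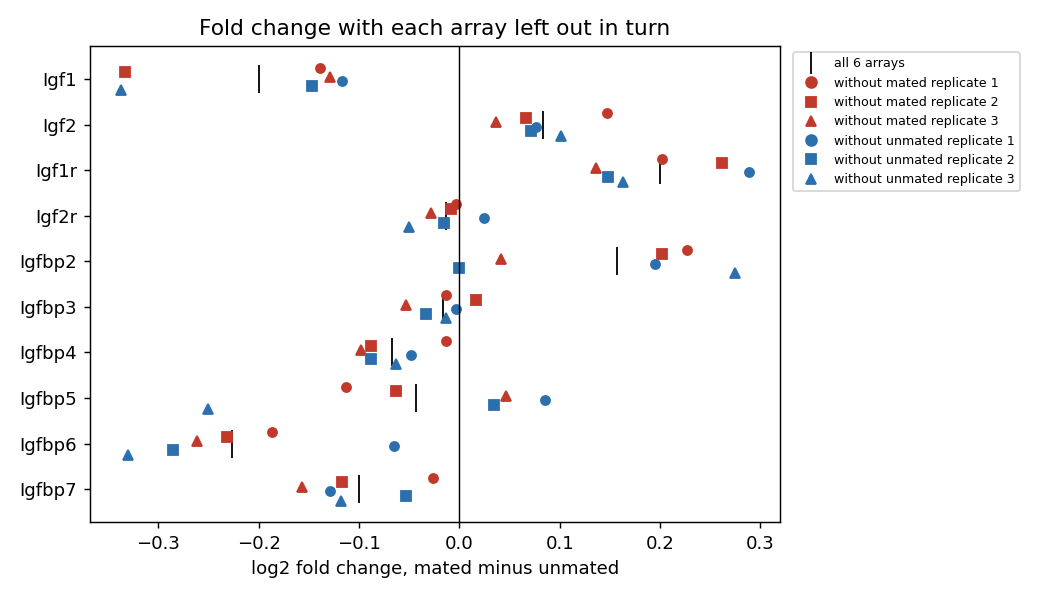
Log2 fold change, mated minus unmated (horizontal axis), of each member with all 6 arrays (black bars) and with each array left out in turn (red, a mated rat left out; blue, an unmated rat left out; symbols give the replicate). Igf1 ran from -0.34 to -0.12 and Igf1r from 0.14 to 0.29, and Igfbp5 lay on both sides of 0.

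Genes around the IGF system were read from 6 lists. Of the 80 genes measured in them, 5 were higher and 1 lower in mated rats at an unadjusted p under 0.05, against 4.57% of all genes. Groups did not overlap for 11 of the 80, against 8.47% of all genes. In the list of insulin, its receptors and other IGF-binding or IGF-related genes, 9 of 11 were measured, and 7 were higher and 2 lower in mated rats. Igf2bp1, which binds Igf2 mRNA, was the only one at an unadjusted p under 0.05, with signals of 6.80, 6.75 and 6.78 in mated rats and 6.60, 6.55 and 6.62 in unmated rats. Those groups did not overlap, but the gene lies within the receptor range, and its log2 fold change of 0.19 (95% confidence interval 0.04 to 0.33) had an adjusted p = 0.984 by limma.

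The insulin receptor gene Insr averaged 11.95 ± 0.03 in mated and 11.82 ± 0.20 in unmated rats (SD, n = 3 each), with unmated replicate 2 low at 11.59. Differences for the others were -0.08 for Ins1 and 0.09 for Ins2, both insulin genes, 0.10 for Insrr, an insulin receptor relative, and 0.14 for Igfals, the acid-labile subunit of the circulating IGF complex. They were 0.06 for Igfbp1, whose gene neighbours Igfbp3, 0.05 for Igfbpl1 and -0.05 for H19, the noncoding RNA gene imprinted together with Igf2. Insrr, Igfbp1 and Igfbpl1 lay within the receptor range, and none of these genes passed the test.

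Among 12 measured proteases of binding proteins and their inhibitors, 1 was higher and 1 lower in mated rats at an unadjusted p under 0.05. Over all genes the share under 0.05 was 4.57%. Groups did not overlap for 2 of the 12, against 8.47% of all genes. Adam28, a membrane metalloprotease reported to cleave IGFBP3 in human cells, had signals of 10.45, 10.81 and 10.70 in mated rats and 10.29, 10.38 and 10.26 in unmated rats. Every mated rat was above every unmated one, and the log2 fold change was 0.34 (0.11 to 0.58; adjusted p = 0.984 by limma). Pappa, the protease of IGFBP4, had 6.54, 6.56 and 6.57 in mated rats and 6.66, 6.73 and 6.73 in unmated rats, without overlap but within the receptor range; its log2 fold change was -0.15 (-0.30 to -0.003; adjusted p = 0.984 by limma). Mmp9, a gelatinase, differed by 0.14 and also lay within that range. The list had a median of -0.03.

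Downstream of the receptor, 0 of 30 measured adaptor and kinase genes had an unadjusted p under 0.05, against 4.57% of all genes. Groups did not overlap for 3 of the 30, Akt1 and Eif4ebp1 among them, against 8.47% of all genes. Akt1, the kinase at the centre of the pathway, averaged 10.15 ± 0.09 in mated and 10.29 ± 0.03 in unmated rats (SD, n = 3 each), with a log2 fold change of -0.14 (-0.31 to 0.02; adjusted p = 0.984 by limma). Ptpn1, a phosphatase that switches insulin and IGF receptors off, differed by -0.22 (-0.49 to 0.05) with overlapping groups. Eif4ebp1, a repressor of translation controlled by mTOR, differed by 0.12 (-0.03 to 0.27). The median of the list was 0.005 (-0.012 after median centring), against 0.01 over all genes, and 83.3% of its intervals lay inside 1.3-fold.

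In the growth hormone list 8 of 8 genes were measured and 1 had an unadjusted p under 0.05, against 4.57% of all genes. Cish, an early feedback inhibitor induced through STAT5, had signals of 8.20, 8.16 and 8.45 in mated rats and 8.05, 8.04 and 7.95 in unmated rats, and its log2 fold change was 0.26 (0.05 to 0.47; adjusted p = 0.984 by limma). The groups did not overlap for Cish, nor for Socs3, another cytokine feedback gene, at 0.19 (-0.01 to 0.38). Over all genes the share without overlap was 8.47%. Socs2, the main brake on growth hormone signalling, differed by 0.20 (-0.04 to 0.45). The list as a whole had 3 genes higher and 5 lower, with a median of -0.01.

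AKT keeps FOXO factors out of the nucleus. Of 13 measured targets of these factors, 1 had an unadjusted p under 0.05, against 4.57% of all genes. This was Ddit4, an inhibitor of mTOR that also responds to glucocorticoids and stress, with 10.38, 10.28 and 10.54 in mated rats and 10.14, 10.07 and 10.12 in unmated rats. The groups did not overlap for this gene alone of the 13, against 8.47% of all genes. Its log2 fold change was 0.29 (0.10 to 0.48, adjusted p = 0.984 by limma). Pdk4, a kinase that restrains glucose oxidation, differed by 0.28 (-0.20 to 0.77) with overlapping groups. The list of 9 measured estrogen and progesterone response genes had 1 gene at an unadjusted p under 0.05, against 4.57% of all genes. This was the complement gene C3, at 0.49 (0.15 to 0.83; adjusted p = 0.984 by limma). Groups did not overlap for C3, nor for Ltf, at 0.39 (-0.07 to 0.84, adjusted p = 0.984 by limma). These were 2 of the 9, against 8.47% of all genes. Esr1, the estrogen receptor gene, differed by 0.01 (-0.19 to 0.21).

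**Figure D5:**
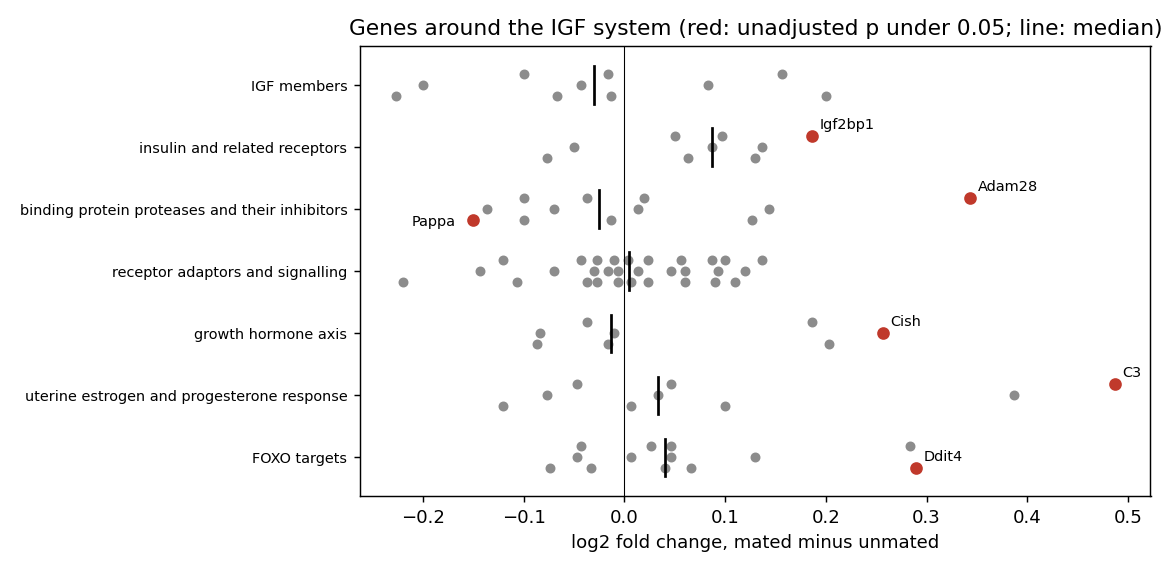
Log2 fold change, mated minus unmated (horizontal axis), of the 10 IGF system genes (top row) and of the genes in 6 related lists; each point is a gene, red marks an unadjusted p under 0.05 and the black line is the list's median. No member of the IGF system is red, and the red points are Igf2bp1, Adam28, Pappa, Cish, C3 and Ddit4.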

How the data were processed

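Total RNA (0.3 µg per rat) from the endosalpinx was labelled by a whole-transcript sense protocol for Affymetrix arrays, per the labels' protocols. The deposited log2 signals, with 1 value for every probe set on each array, were made by the authors with RMA in Affymetrix Expression Console, per the submitters' processing notes; versions and genome build are not given in the sources used here, and the log2 scale was read from the range of the values. Because RMA equalizes the distributions of the arrays, a change shared by most transcripts cannot be seen. No 2 arrays held the same values, and array medians were 7.89 to 7.94.

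Of 29214 probe sets, 15310 had 1 gene symbol in the platform annotation, 323 several and 13581 none listed. The probe set of highest mean was kept per gene, leaving 14506 genes; all 10 members matched RefSeq (GRCr8) by Entrez identifier with the same symbol. The comparison of mated against unmated rats used limma 3.58.1 (R 4.3.3), lmFit and eBayes, without a block, with Benjamini-Hochberg adjustment over all genes; tests were two-sided and the procedure was tested on simulated data. Replicates are individual rats.

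The members and gene lists were chosen with earlier results of these data known. Besides the members, the text names at most 3 genes of smallest p per list, all genes of the insulin list and the 5 genes closest in pattern to the most variable member; Esr1, Lum, Pdgfrb and Emcn were chosen after their values were seen. Other list entries are not analysed here. Alternatives were array weights, a replicate block, robust fitting, an intensity trend, other scalings, filters on the dimmest 25% and 50% of genes, other handling of probe sets, and each rat left out.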

Additional observations from a re-analysis of the deposited data

How the results depend on the processing

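Under 16 alternatives limma called 0 genes past the adjusted threshold, while the number at an unadjusted p under 0.05 ran from 262 (the dimmest 50% left out, 7253 genes tested) to 1403 (without mated replicate 1), against 663 with all arrays and genes. The smallest adjusted p of any member in any setting was 0.531. Of 146 estimates for single members under the alternatives 141 did not change sign, 1 of them being 0 for Igfbp2 without unmated replicate 2. This count overstates stability, since several alternatives could not change the estimates. These were the replicate block, the intensity trend, robust fitting, the filters on dim genes and the mean of all probe sets. The 5 that changed sign came from leaving out 1 rat. They belong to Igf2r, which ran from -0.05 to 0.025 over the 6 such settings, Igfbp3, from -0.053 to 0.017, and Igfbp5, from -0.25 to 0.085, and the cause was not tested. With 1 rat left out, the count of members at an unadjusted p under 0.05 ran from 0 to 2, the count without overlap from 1 to 3 and the median of the members from -0.06 to 0.01. The count at an unadjusted p under 0.05 was 0 under the 9 other settings run for it. The count without overlap was 0 under the 3 run for it. These were both other scalings and the mean of all probe sets, which could not change it. The replicate number as a block called 0 genes, with a smallest adjusted p = 0.988 by limma, 672 genes at an unadjusted p under 0.05 and 0 members among them. No pairing of the rats by replicate number was visible. Deviations of same-numbered arrays correlated at 0.004, -0.08 and 0.07 across genes, and mated replicate 1 correlated best with unmated replicate 2 (0.14). With 3 arrays per group this check cannot exclude a weak pairing. The 95% confidence interval reached 0.20 log2 units to either side for the median gene, before adjustment for the number of genes, and the signals of the ligands lie near background.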

Other observations

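Of 8 measured endothelial markers, 2 were higher and 2 lower in mated rats at an unadjusted p under 0.05, against 4.57% of all genes. None passed the adjusted threshold (adjusted p = 0.984 by limma for each). Groups did not overlap for 3 of the 8, against 8.47% of all genes. Tie1, a receptor of vessel walls, averaged 8.18 ± 0.16 in mated and 7.85 ± 0.14 in unmated rats (SD, n = 3 each), and Esam, an endothelial adhesion molecule, averaged 8.28 ± 0.07 in mated and 8.03 ± 0.18 in unmated rats. Tek, the angiopoietin receptor that pairs with Tie1, averaged 6.56 ± 0.05 in mated and 6.85 ± 0.22 in unmated rats. Emcn, a sialomucin of capillaries named after its values were seen, averaged 6.52 ± 0.06 in mated and 6.74 ± 0.16 in unmated rats. Tie1 and Esam lay above the receptor range and Tek and Emcn within it, and the median of the list was 0.02 as deposited and slightly below 0 after a second quantile normalization.

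Among the other marker lists, the macrophage list had 0 of 8 genes at an unadjusted p under 0.05, with the smallest p for the receptor Csf1r (-0.13 on the log2 scale), and the 2 measured mesothelium markers and the 4 measured erythroid and platelet markers had none. The adipocyte list had 1 of 5, the complement factor gene Cfd, with log2 signals of 7.40, 7.46 and 7.45 in mated rats and 7.10, 7.26 and 7.35 in unmated rats. The secretory list had 1 of 5, the homeobox gene Msx2, at 0.23 within the receptor range. The epithelial and smooth muscle lists had none. Over all genes the share at an unadjusted p under 0.05 was 4.57%.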
